A study of Mus musculus with 80 samples.

Results

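Purkinje cells are the GABAergic neurons that carry the output of the cerebellar cortex, and they are marked by a small set of abundant mRNAs. The 8 genes described here, Pcp2, Car8, Itpr1, Ppp1r17, Slc1a6, Calb1, Pvalb and Gng13, were chosen by name as genes known from Purkinje cells, with earlier results of these data known. They are 8 of the 27179 genes in the count table, and all 8 were among the 13016 genes that passed the filter on low values (8 or more libraries at 5 CPM or more, where CPM is a gene's count in each 1000000 counts of its library). Glutamate released by parallel and climbing fibers acts on Purkinje cell dendrites, where a Gq protein and phospholipase C beta raise inositol trisphosphate (IP3). IP3 opens the receptor channel encoded by Itpr1 and lets calcium out of the endoplasmic reticulum. Calcium binding proteins then buffer the calcium signal, and the transporter encoded by Slc1a6 clears glutamate around the dendritic spines.

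RNA-seq libraries had been made from polyadenylated RNA of 5 brain regions (cerebellum, hypothalamus, hippocampus, neocortex and amygdala) of 16 C57BL/6 female mice (C57BL/6J in the study's methods), to ask whether maternal experience leaves lasting differences in gene expression. The 8 primiparous females had been housed at 8 weeks of age with a male for 2 weeks, had borne and raised a litter, and were sampled 3 weeks after weaning by the labels, an interval that the study's methods give as longer. The 8 virgin females were age-matched, were kept in a group and never met a male, so that mating, pregnancy, nursing and contact with a male cannot be told apart in any comparison of the states. A library held RNA of a single region and a single animal, from the left side only except for the hypothalamus, which was used whole. Of 80 labelled samples, 77 were analysed here, with 7 virgin and 8 primiparous libraries for the cerebellum, the hippocampus and the amygdala, and 8 of each state for the hypothalamus and the neocortex.

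Pcp2 (Entrez 18545) lies on chromosome 8 from 3623371 to 3625545 on the minus strand of GRCm38 (mm10, GENCODE M21), and Pvalb (19293) on chromosome 15 from 78191114 to 78206400 on the minus strand. Car8 (12319) runs on chromosome 4 from 8143362 to 8239041 on the minus strand, and Calb1 (12307) on the same chromosome from 15881264 to 15908064 on the plus strand. Itpr1 (16438) is found on chromosome 6 from 108213096 to 108551109 and Ppp1r17 (19051) on chromosome 6 from 56017497 to 56032689, both on the plus strand. Slc1a6 (20513) occupies chromosome 10 from 78780496 to 78814765 and Gng13 (64337) chromosome 17 from 25717171 to 25719406, both on the plus strand. The library kit does not mark strand, so reads of Pcp2 cannot be told apart from those of the overlapping gene Pet100 on the other strand, nor those of Gng13 from Chtf18. Car8 and Itpr1 overlap annotated non-coding genes (2 and 4), of which 1 and 2 lie on the other strand.

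The 250 bases upstream of the annotated start are shown because the members share a strong preference for 1 brain region. They were taken from the RefSeq table for GRCm38.p6, which held a window for 4 of the 8 members. It held 4 windows for Pcp2, 2 each for Pvalb and Gng13 and 1 for Slc1a6, of which 1 a gene is printed and searched here. Each is printed 5′ to 3′ on the gene's own strand, with capitals marking a match to the letters AGGTCA, the core letters bound by nuclear receptors such as RORA, or to CCCNNGGGA, letters bound by early B cell factors such as EBF2. Pcp2 lies at chr8:3625548-3625797 (minus strand), Slc1a6 at chr10:78780246-78780495 (plus strand), Pvalb at chr15:78206401-78206650 (minus strand) and Gng13 at chr17:25716922-25717171 (plus strand).
Pcp2: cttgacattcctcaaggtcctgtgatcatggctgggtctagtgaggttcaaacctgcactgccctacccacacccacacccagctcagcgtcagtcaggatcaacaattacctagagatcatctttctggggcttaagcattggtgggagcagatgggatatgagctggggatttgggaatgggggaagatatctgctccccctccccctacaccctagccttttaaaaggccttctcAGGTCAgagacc
Slc1a6: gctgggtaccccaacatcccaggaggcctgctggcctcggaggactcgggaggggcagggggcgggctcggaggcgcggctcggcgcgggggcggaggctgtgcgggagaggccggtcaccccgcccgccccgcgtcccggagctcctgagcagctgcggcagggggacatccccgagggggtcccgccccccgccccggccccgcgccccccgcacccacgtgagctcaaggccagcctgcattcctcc
Pvalb: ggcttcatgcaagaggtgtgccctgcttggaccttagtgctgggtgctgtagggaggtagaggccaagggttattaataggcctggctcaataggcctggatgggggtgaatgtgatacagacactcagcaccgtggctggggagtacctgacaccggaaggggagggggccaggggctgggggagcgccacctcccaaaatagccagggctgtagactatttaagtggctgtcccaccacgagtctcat
Gng13: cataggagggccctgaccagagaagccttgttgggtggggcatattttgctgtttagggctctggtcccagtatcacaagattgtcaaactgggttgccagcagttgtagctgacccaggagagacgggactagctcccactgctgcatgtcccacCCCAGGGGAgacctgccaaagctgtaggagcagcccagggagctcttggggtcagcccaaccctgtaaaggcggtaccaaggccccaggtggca

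Both strands of these windows were searched for AGGTCA, for the longer TAGGTCA that contains it, for CCCNNGGGA and for TATAAA. Pcp2 held AGGTCA from 12 to 7 bases before its start. Gng13 held CCCNNGGGA from 94 to 86 bases before its start. The windows of Slc1a6 and Pvalb held none of these letters. Of 32536 windows of the same length in the table, 14.0% held AGGTCA, 2.24% TAGGTCA, 5.63% CCCNNGGGA and 12.3% TATAAA, so matches of these kinds are frequent, and they describe letters and not binding sites.

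Library totals ranged from 7959192 to 37871854 counts. The 8 genes together took 1.09% ± 0.082 (SD, n = 15) of the counts in the cerebellum and between 0.0502% (hypothalamus) and 0.0941% (neocortex) on average in the other regions. The hippocampus library of primiparous 413 stood apart from the other 14 hippocampus libraries, since it held the highest hippocampal value of all 8 genes, as its CPM values below give, and results that rest on it are given with and without it. Animal numbers had 3 digits in 2 of the 8 virgin and 7 of the 8 primiparous females and 4 digits in the rest. What the 2 number series stand for is not given in the sources used here, and the series nearly coincide with reproductive state.

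All 8 genes were higher in the cerebellum than in each of the 4 other regions, and for each the lowest cerebellum library lay above the highest library of any other region. In edgeR fits over all 77 libraries, with p-values adjusted by the Benjamini-Hochberg method over the 13016 genes, 41.1% of all genes were higher in the cerebellum than in the hypothalamus, 40.2% than in the hippocampus, 40.2% than in the neocortex and 41.4% than in the amygdala, against 8 of 8 members in each. Of all genes, 22.1% were higher than in each of the 4 regions at once. The largest of the 32 adjusted p-values was 6.99e-26 (Ppp1r17 against the hypothalamus). In bulk tissue, fewer cells of a type and less RNA per cell cannot be told apart.

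**Figure D1:**
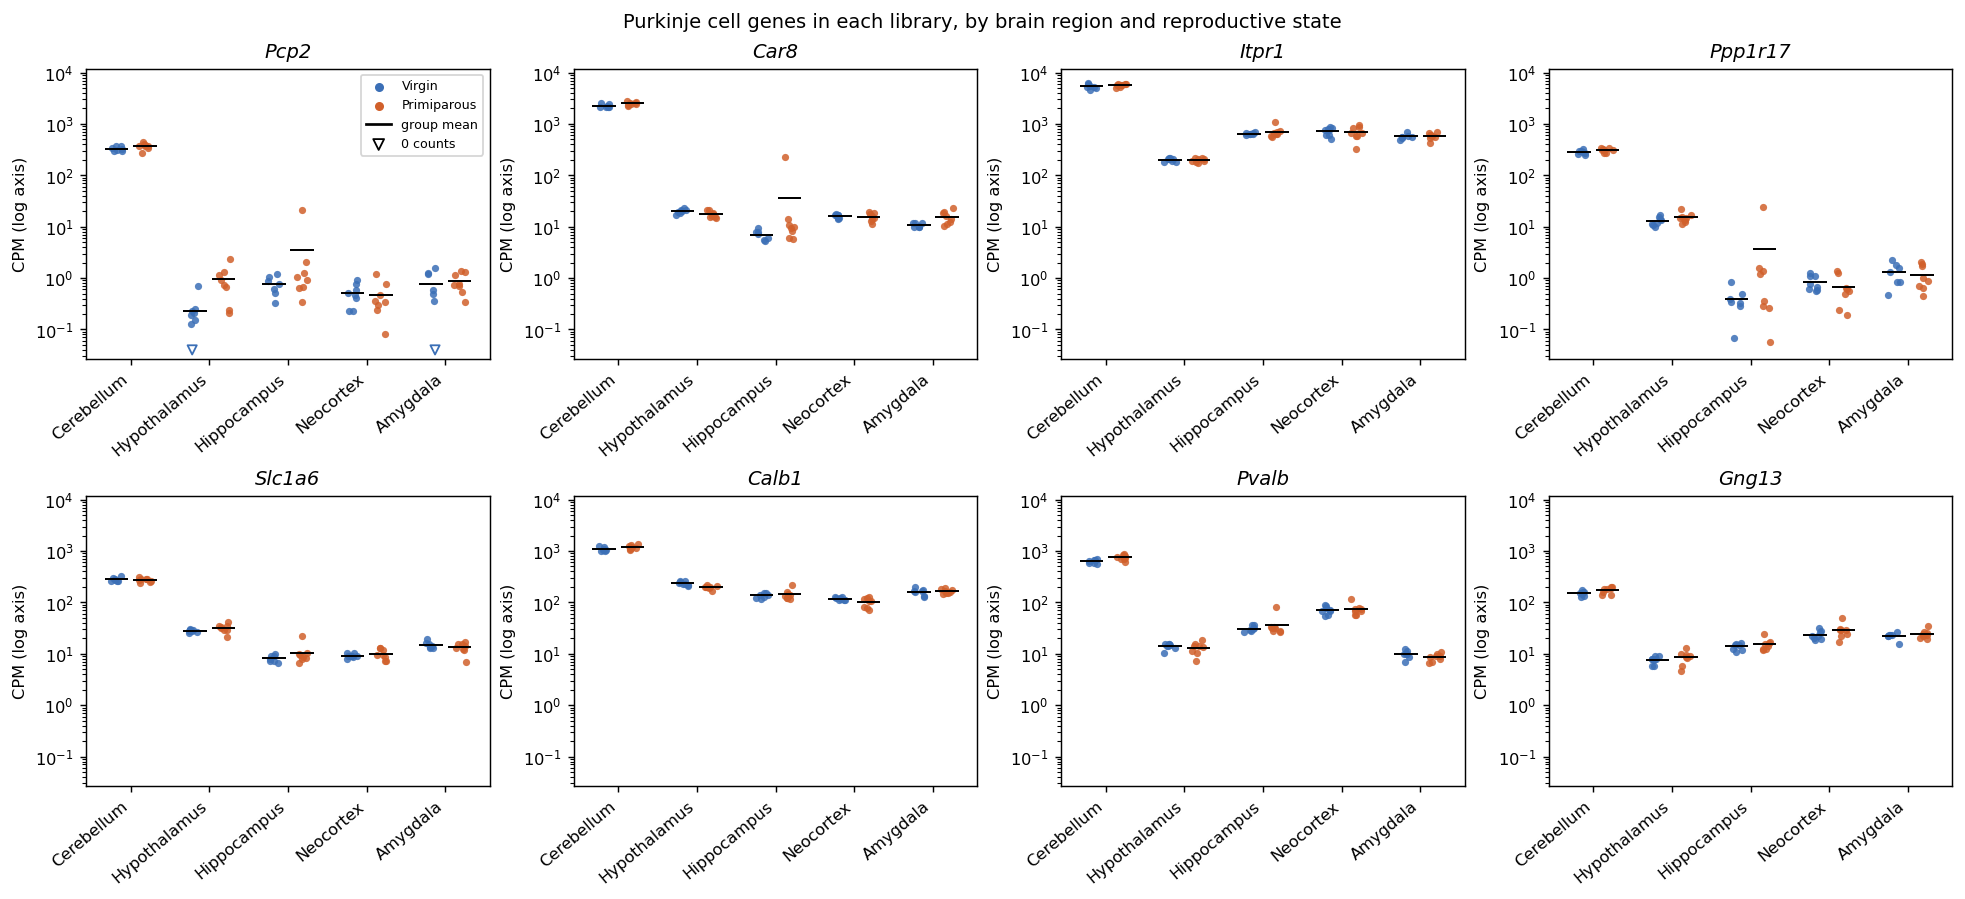
CPM of each gene (log axis) in every library, by brain region and reproductive state, with the group mean as a bar and open triangles for libraries with 0 counts. In each panel all cerebellum libraries lie above all others, from a lowest Pcp2 value of 273 CPM against at most 21.5 elsewhere, and the isolated high hippocampus point in each panel is primiparous 413.

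Pcp2 encodes a small regulator of Gi and Go proteins that is used as a Purkinje cell marker. Its level in the cerebellum ranged from 273 to 441 CPM with a median of 368. Elsewhere the medians were 0.245 CPM in the hypothalamus (0 to 2.31), 0.862 in the hippocampus (0.331 to 21.5), 0.442 in the neocortex (0.0815 to 1.22) and 0.736 in the amygdala (0 to 1.60). The mean in the cerebellum was thus 601 times that in the hypothalamus, 403 times that in the hippocampus without primiparous 413 (157 times with it), 716 times that in the neocortex and 425 times that in the amygdala. Pcp2 had 0 counts in 1 virgin hypothalamus library and in 1 virgin amygdala library, which by 3 counts allows up to 0.233 and 0.172 CPM there, for counting error only. Among the 4 low regions no neighbours in the order of levels passed the threshold of 0.05 (adjusted p between 0.067 and 0.78), and without primiparous 413 the amygdala (0.829 CPM) was above the hypothalamus (0.586 CPM; adjusted p = 0.023, 0.12 with the animal as a block in the fit of all libraries).

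Gng13 encodes a gamma subunit of heterotrimeric G proteins. Cerebellum libraries held 125 to 198 CPM with a median of 160.0. The medians of the other regions were 25.6 CPM in the neocortex (17.2 to 50.6), 22.9 in the amygdala (15.5 to 34.5), 14.9 in the hippocampus (10.9 to 24.7) and 8.13 in the hypothalamus (4.57 to 12.9). Against the neocortex its log2 difference was 2.53 ± 0.10 (SE), a 5.76-fold difference and the smallest of the 8 genes in that contrast. Neocortex and amygdala did not pass the threshold (adjusted p = 0.26), and the other neighbours in the order did.

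Itpr1, the IP3 receptor, was the most abundant of the 8 by CPM. It ranged from 4636 to 6137 CPM in the cerebellum with a median of 5650.5, and its mean was the 3rd highest of the 13016 genes there. It was also well represented elsewhere, with medians of 722 CPM in the neocortex (329 to 951), 647 in the hippocampus (548 to 1070.1), 562 in the amygdala (424 to 709) and 205 in the hypothalamus (170.2 to 218). The hypothalamus lay below every library of the other regions. Neocortex and hippocampus did not pass the threshold (adjusted p = 0.61), and hippocampus and amygdala passed it with primiparous 413 (adjusted p = 0.024) but not without it (0.078).

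Car8 encodes a carbonic anhydrase relative without enzyme activity that binds the IP3 receptor. In the cerebellum it ranged from 2098 to 2833 CPM (median 2426), the 17th highest mean. Medians elsewhere were 18.9 CPM in the hypothalamus (15.1 to 22.8), 16.3 in the neocortex (11.2 to 19.4), 11.7 in the amygdala (10.02 to 23.3) and 7.87 in the hippocampus (5.17 to 223). With all libraries none of the neighbours among these regions passed the threshold (adjusted p between 0.46 and 0.74), although with the animal as a block the hypothalamus and the hippocampus did (adjusted p = 0.046). By limma-voom, which called 8 of 8 members between the hypothalamus and the hippocampus, Car8 passed there too. Primiparous 413 decided this order, since without it the mean in the hippocampus dropped from 22.4 to 8.10 CPM and was below that in the amygdala (13.5 CPM; adjusted p = 8.43e-10), which was below that in the neocortex (15.8 CPM; adjusted p = 0.013).

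Calb1 and Pvalb encode the calcium buffers calbindin and parvalbumin, which other neurons also use. Calb1 ranged from 981 to 1385 CPM in the cerebellum (median 1149), and its medians were 212 CPM in the hypothalamus (169 to 266), 164 in the amygdala (127 to 198), 139 in the hippocampus (115 to 221) and 115 in the neocortex (71.7 to 128). All neighbours in this order differed (largest adjusted p 0.0053, hippocampus below amygdala), although ranges of neighbouring regions overlapped. In primiparous libraries only, Calb1 passed neither between hypothalamus and amygdala (0.10, adjusted p = 0.41) nor between hippocampus and amygdala (-0.17, adjusted p = 0.19; 0.057 with all libraries and no filter). Calb1 had the smallest difference between cerebellum and hypothalamus of the 8 genes, 2.40 ± 0.069 on the log2 scale. Pvalb ranged from 571 to 865 CPM in the cerebellum (median 689), with medians of 69.7 CPM in the neocortex (54.9 to 116), 31.3 in the hippocampus (26.1 to 82.1), 14.2 in the hypothalamus (7.19 to 18.5) and 9.06 in the amygdala (6.70 to 12.5). Its order therefore ran neocortex, hippocampus, hypothalamus, amygdala, with each step past the threshold (largest adjusted p 0.0014).

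Slc1a6 encodes the glutamate transporter EAAT4, and Ppp1r17 encodes G-substrate, a target of cGMP-dependent protein kinase that inhibits protein phosphatases. Slc1a6 ranged from 241 to 321 CPM in the cerebellum (median 277), and Ppp1r17 from 254 to 348 CPM (median 303). Both were next highest in the hypothalamus, where Slc1a6 had a median of 29.3 CPM (21.4 to 42.3) and Ppp1r17 of 13.8 CPM (9.83 to 22.3). For Slc1a6 every hypothalamus library lay above the amygdala (6.93 to 19.7 CPM, median 14.0), the neocortex (7.10 to 13.0, median 9.05) and all but 1 library of the hippocampus, primiparous 413 (6.53 to 21.9, median 8.51). Ppp1r17 was low in the other regions, with medians of 1.02 CPM in the amygdala (0.445 to 2.25), 0.629 in the neocortex (0.194 to 1.37) and 0.365 in the hippocampus (0.0572 to 24.0). Ppp1r17 was lower in the hippocampus than in the hypothalamus by a log2 difference of 3.43 ± 0.35 (adjusted p = 3.72e-14), and by 4.59 without primiparous 413 (adjusted p = 1.42e-35). Without that library its level in the hippocampus (0.563 CPM on average) was also below that in the amygdala (1.23 CPM; log2 difference -1.26, adjusted p = 3.24e-05), and that in the neocortex (0.748 CPM) was below the amygdala too (adjusted p = 0.0051).

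Over the remaining pairs of regions, 7 of 8 members differed between hypothalamus and hippocampus (73% of all genes), 6 between hypothalamus and neocortex (77.7%), 6 between hypothalamus and amygdala (71%), 4 between hippocampus and neocortex (67%), 5 between hippocampus and amygdala (58.7%) and 4 between neocortex and amygdala (62.5%). Without primiparous 413 these counts were 8 (72.6% of all genes), 6 (77.6%), 8 (71%), 5 (66.8%), 6 (58.5%) and 6 (62.5%). Directions were mixed in each pair with all libraries. Levels per gene length gave another order within the cerebellum than CPM. Per kilobase of annotated exon, Pvalb (669 ± 92.8 CPM per kb) and Car8 (621 ± 57.5) were highest, followed by Itpr1 (303), Calb1 (236), Gng13 (211), Pcp2 (193), Ppp1r17 (170.5) and Slc1a6 (129). The annotated exons of Itpr1 span 18319 bases.

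The genes most like the members over the 77 libraries were other cerebellar genes. The measure was Pearson's r of log2(CPM + 4), whose points share library and region, so that it describes the regional pattern. Pcp2 was most like Gabra6, Crtam and Cbln3 (r from 0.996 to 0.997), of which Gabra6 and Cbln3 are expressed by cerebellar granule cells. Car8 was most like Dao, Arhgef33 and Gabra6 (r = 0.990 each). Ppp1r17 (Lhx1os 0.992, Slc1a6 0.987) and Slc1a6 (Ppp1r17 0.987, Nsg1 0.982) were among each other's closest genes, and Calb1 (Mindy2 0.981, Atl2 0.977) also had Slc1a6 among its 3 closest (0.975). The closest genes of Pvalb were Nrep (0.981), Syndig1 (0.978) and Kcng4 (0.975), those of Itpr1 were Sbk1 (0.975), Mpp3 (0.973) and Pde5a (0.971), and those of Gng13 were Grin2c (0.973), Trabd2b (0.970) and Sbk1 (0.968). The number of genes with r above 0.9 ranged from 118 for Itpr1 to 399 for Pcp2.

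The same regional preference was shown by most other genes of the cell type and the pathway. Of 23 other Purkinje cell genes, 21 were higher in the cerebellum than in each other region, and the transcription factor Foxp2 was among those that were not. Of 15 genes of the IP3 and calcium pathway, 11 were, among them the phospholipase Plcb4 (293 ± 22.8 CPM in the cerebellum, at most 112 on average elsewhere) and the scaffold Homer3 (301 ± 26.1, at most 43.5). The G protein subunits Gnaq and Gna11 and the receptor Itpr2 were among those that were not. Of 20 relatives of the members that passed the filter, 9 were.

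Relatives of a member often had another pattern. Itpr3 resembled Itpr1 in being highest in the cerebellum (41.9 ± 9.97 CPM against 5.94 to 7.73), while Itpr2 was at 21.7 ± 2.96 CPM there and 17.0 to 26.7 elsewhere. Among glutamate transporters, Slc1a3 was higher in the cerebellum (1606 ± 114 CPM against 648 to 929), and the astrocytic Slc1a2 lower (869 ± 84.9 against 1655 to 3826). The gamma subunits Gng2, Gng3, Gng4 and Gng7 were all lower in the cerebellum than in each other region on average, Gng4 at 8.51 ± 1.54 CPM against 25.9 to 126. Gng11, like Gng13, was higher in the cerebellum than in each of them (19.4 ± 4.35 CPM against 4.95 to 11.1). All 12 cerebellar granule cell genes, 5 of 8 Bergmann glia and astrocyte genes and 5 of 7 genes of molecular layer and Golgi interneurons were also higher in the cerebellum than in each other region, as were 1 of 7 oligodendrocyte genes, 3 of 8 of forebrain parvalbumin interneurons, 0 of 5 of forebrain calbindin neurons, 1 of 6 of medium spiny neurons and 3 of 5 of thalamus.

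In the hippocampus library of primiparous 413, Car8 was at 223 CPM against 5.17 to 14.1 in the other 14 hippocampus libraries, Pcp2 at 21.5 against 0.331 to 2.04, and Ppp1r17 at 24.0 against 0.0572 to 1.59. As a ratio to the highest of the other 14 libraries, though not in CPM, the other members stood less far above. Itpr1 was at 1070.1 CPM against 548 to 723, Calb1 at 221 against 115 to 161, Pvalb at 82.1 against 26.1 to 35.8, Slc1a6 at 21.9 against 6.53 to 10.3 and Gng13 at 24.7 against 10.9 to 16.9. Expressed as a share of the level in the cerebellum library of the same animal, the excess over the median of the other 14 lay between 5.18% (Pcp2) and 8.62% (Car8), with a median of 6.54%.

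Genes of other cerebellar cells were raised in this library too. It was the highest hippocampus library for 18 of 23 other Purkinje cell genes and for 11 of 12 granule cell genes, against 8.87% of all 13016 genes and 22.5% of the 2883 genes higher in the cerebellum than in each other region. The excess was between 2.36% and 10.7% (median 7.48%) of the animal's own cerebellar level for the 21 other Purkinje cell genes that were higher in the cerebellum and between 2.93% and 19.8% (median 9.14%) for the granule cell genes. It was the highest library for 0 of 2 genes of the deep nuclei and brainstem, 0 of 4 of choroid plexus and 1 of 5 of thalamus. The source of these counts was not tested.

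**Figure D2:**
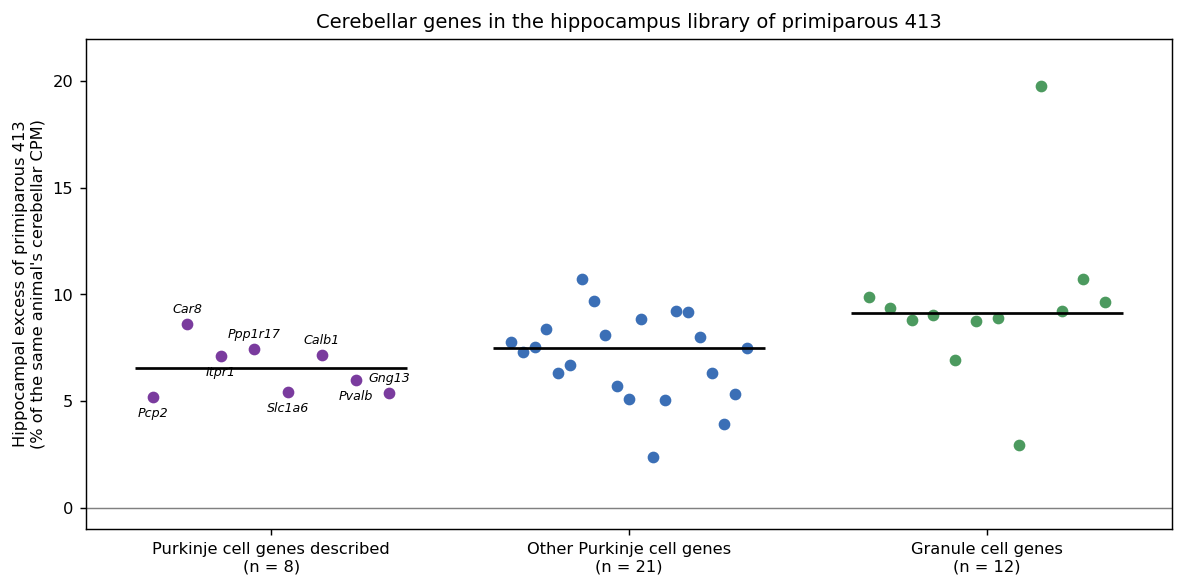
Excess of the hippocampus library of primiparous 413 over the median of the other 14 hippocampus libraries, as a percentage of the same animal's cerebellar CPM, for the 8 genes described, the 21 other Purkinje cell genes higher in the cerebellum and 12 granule cell genes (points are genes, bars are medians). The medians were 6.54%, 7.48% and 9.14%.

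Within the cerebellum, 0 of the 8 members differed between primiparous and virgin females in the edgeR test of that region (adjusted p from 0.056 to 0.89), where 0.707% of all genes did. Of the members, 6 of 8 had an unadjusted p under 0.05 (19.5% of all genes), limma-voom called 0 and DESeq2 called 1 (Pvalb). Over all genes, limma-voom called 61 higher and 11 lower of 13016, and DESeq2 called 334 higher and 171 lower of 12257. The log2 difference was above 0 for 7 of the 8, with a median of 0.17 against 0.01 over all genes. The summed share of counts was 1.04% ± 0.065 (n = 7) in virgin and 1.13% ± 0.077 (n = 8) in primiparous libraries, with overlapping ranges.

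Pvalb, which molecular layer interneurons of the cerebellum also express, came nearest to the threshold. Virgin cerebellum libraries ranged from 571 to 689 CPM (median 634) and primiparous libraries from 603 to 865 (median 751). The groups overlapped through primiparous 4493 (603 CPM) alone, since the other 7 primiparous libraries, from 703 CPM up, lay above every virgin library. The log2 difference was 0.28 ± 0.07 (SE; edgeR adjusted p = 0.056), and 7 of 8 primiparous libraries were above the virgin mean. Within the 3-digit number series the 2 virgin libraries were at 571 and 634 CPM and the 7 primiparous libraries at 703 to 865, and within the 4-digit series the 5 virgin libraries were at 573 to 689 and the 1 primiparous library at 603.

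Car8 ranged from 2098 to 2527 CPM in virgin (median 2151) and from 2273 to 2833 in primiparous libraries (median 2530). All 8 primiparous libraries lay above the virgin mean, with overlapping ranges, and the log2 difference was 0.18 ± 0.055 (adjusted p = 0.093). Calb1 ranged from 981 to 1226 CPM (median 1041) and from 1053 to 1385 (median 1192), a log2 difference of 0.17 ± 0.062 (adjusted p = 0.16).

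Pcp2 ranged from 302 to 379 CPM in virgin (median 328) and from 273 to 441 in primiparous libraries (median 373), a log2 difference of 0.17 ± 0.078 (adjusted p = 0.24). For Gng13 the virgin range was 125 to 173 CPM (median 156) and the primiparous range 137 to 198 (median 186), with a log2 difference of 0.22 ± 0.09 (adjusted p = 0.18). The ranges of both genes thus overlapped between the states, although the primiparous median of Gng13 lay above its highest virgin library.

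Ppp1r17 (254 to 327 against 268 to 348 CPM) had a log2 difference of 0.14 ± 0.066 (adjusted p = 0.24), Itpr1 (4636 to 6137 against 5016 to 6028 CPM) of 0.08 ± 0.06 (adjusted p = 0.49) and Slc1a6 (260.0 to 321 against 241 to 312 CPM) of -0.02 ± 0.062 (adjusted p = 0.89). Primiparous 4493 was the lowest primiparous library in 6 of the 8 genes. Without it, 4 members passed the threshold, where 6.94% of all genes did, all higher in primiparous females, namely Pvalb (0.32, adjusted p = 0.0054), Car8 (0.20, 0.027), Pcp2 (0.22, 0.033) and Gng13 (0.27, 0.046). Pvalb also passed without primiparous 418 (0.30, adjusted p = 0.046) and without virgin 4488 (0.30, adjusted p = 0.047). For those fits the share of all genes past the threshold is not given here. With the number series as a covariate 0 members passed (Pvalb 0.22, adjusted p = 0.79). The share of all genes is not given for that fit either, so this count is not read as particular to the members.

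**Figure D3:**
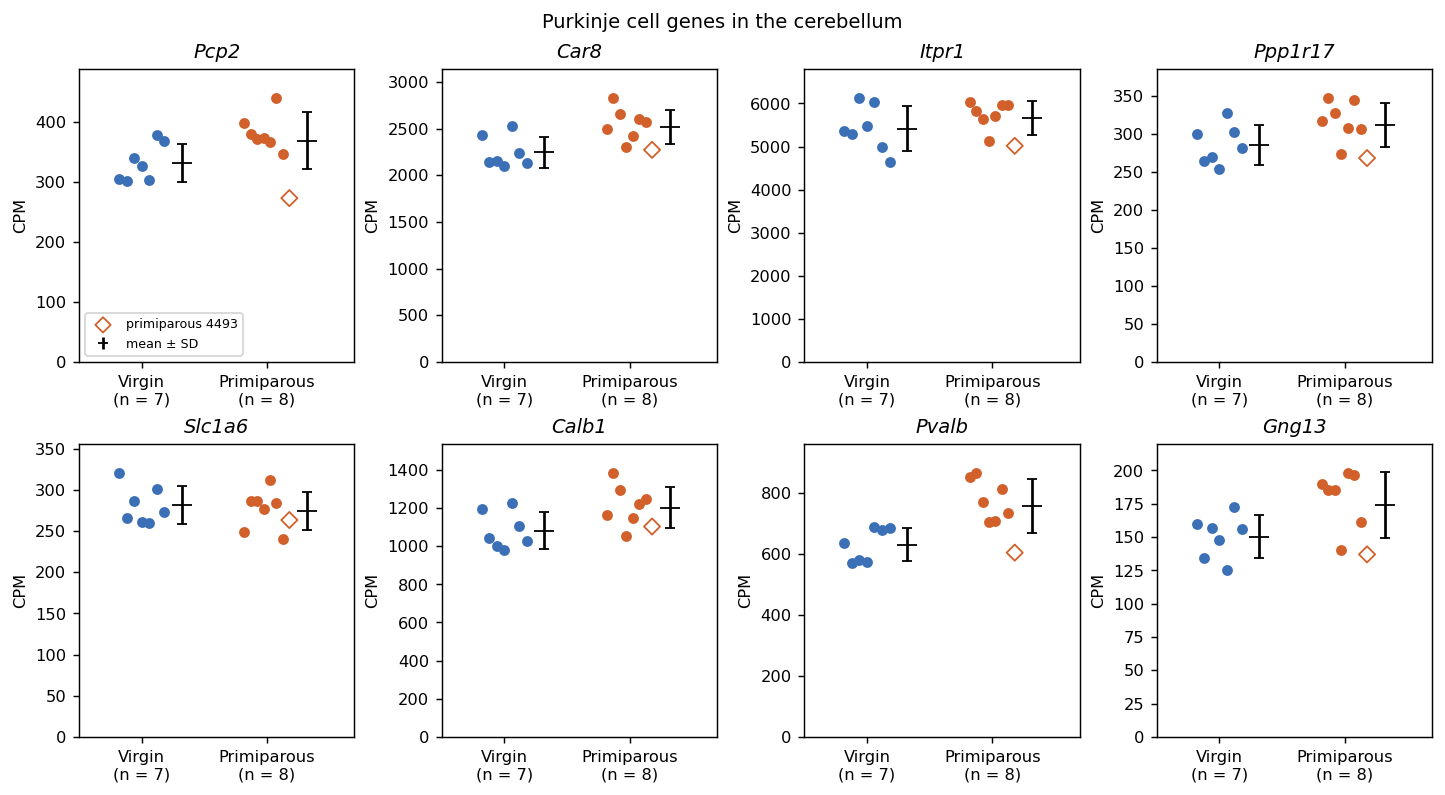
CPM of the 8 genes in the 7 virgin and 8 primiparous cerebellum libraries, each point 1 animal, with mean ± SD beside the points and primiparous 4493 as an open diamond. Axes start at 0. The Pvalb points of 7 primiparous animals, from 703 to 865 CPM, lie above all virgin points, which end at 689 CPM.

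The other genes of the cell type and pathway had medians nearer to 0 than the members. Of the 23 other Purkinje cell genes, 1 rose in the primiparous cerebellum, Arhgef33 (229 ± 15.1 to 275 ± 25.8 CPM, log2 difference 0.28 ± 0.063, adjusted p = 0.045, not called by limma-voom), and the list's median was 0.04. Of the 15 pathway genes 0 passed the edgeR threshold (2 at an unadjusted p under 0.05, 0 by limma-voom, 1 by DESeq2), with a median of 0.02, and the smallest p belonged to the IP3 receptor Itpr3 (48.5 ± 8.53 against 36.1 ± 7.35 CPM, log2 difference -0.42, adjusted p = 0.10). Of 20 relatives 1 rose, the gamma subunit Gng11 (16.3 ± 2.24 to 22.1 ± 3.94 CPM, log2 difference 0.46, adjusted p = 0.0495, not called by limma-voom), with 9 of the 20 at an unadjusted p under 0.05, 0 called by limma-voom and 4 by DESeq2.

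Markers of other cerebellar cells moved in the same comparison. Of 8 Bergmann glia and astrocyte genes 3 rose, Fabp7 (21.9 ± 3.67 to 39.0 ± 7.80 CPM, log2 difference 0.84, adjusted p = 0.0077), the water channel Aqp4 (0.30, adjusted p = 0.017) and Hopx (0.30, adjusted p = 0.025), and of 7 oligodendrocyte genes 1 rose, the myelin gene Mbp (2975 ± 317 to 3940 ± 514 CPM, log2 difference 0.42, adjusted p = 0.025). Of 12 granule cell genes 0 passed in edgeR (4 at an unadjusted p under 0.05, 0 by limma-voom, 1 by DESeq2), with a median of -0.09 and the smallest p for Cbln3 (-0.15, adjusted p = 0.086). The summed level of the granule cell list ranged from 6731 to 7427 CPM in virgin and from 5741 to 7528 in primiparous libraries, that of the oligodendrocyte list from 4461 to 5924 and from 5361 to 7516, and that of the Bergmann glia and astrocyte list from 3120 to 3716 and from 3239 to 3708. In the lists of molecular layer and Golgi interneurons, deep nuclei, choroid plexus, forebrain parvalbumin interneurons, forebrain calbindin neurons, medium spiny neurons and thalamus, 0 genes passed in edgeR, limma-voom or DESeq2 in the cerebellum, with at most 1 gene of a list at an unadjusted p under 0.05. The list medians were 0.15 for oligodendrocytes (5 of 7 genes at an unadjusted p under 0.05) and 0.09 for Bergmann glia and astrocytes (4 of 8). Those of choroid plexus (0.40), deep nuclei (0.17) and medium spiny neurons (0.14) also lay above 0. Molecular layer and Golgi interneurons (-0.08), forebrain parvalbumin interneurons (-0.09), forebrain calbindin neurons (-0.05) and thalamus (-0.03) had medians below 0. With the number series as a covariate, 0 genes of any list passed in the cerebellum, the other Purkinje cell genes, pathway genes and relatives included. Without primiparous 4493, 2 of the other Purkinje cell genes, 4 Bergmann glia and astrocyte genes and 2 oligodendrocyte genes rose, 2 granule cell genes fell, 1 pathway gene rose and 1 fell, 4 relatives rose and 1 fell, and 1 gene of forebrain calbindin neurons rose. The part of these cell types in the values of the members was not tested.

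In the hypothalamus 2 members passed the threshold, Calb1 lower and Pcp2 higher in primiparous females, where 22.6% of all genes did, so the share of members was close to that of all genes. Calb1 ranged from 207 to 266 CPM in virgin (median 235) and from 169 to 214 in primiparous libraries (median 200.3). All 8 primiparous libraries lay below the virgin mean of 237 ± 19.9, with overlapping ranges. Calb1 fell by 0.29 ± 0.055 on the log2 scale (edgeR adjusted p = 0.0021). The 2 virgin libraries of the 3-digit series, at 207 and 217 CPM, were the lowest virgin values. The 6 virgin libraries of the 4-digit series were at 228 to 266. The 7 primiparous libraries of the 3-digit series had a mean of 197 CPM, and the 1 of the 4-digit series was at 197 CPM. With the series as a covariate the log2 difference was -0.19 (adjusted p = 0.20), and with an offset for gene length and GC content it was 0.04 (adjusted p = 0.65), of the opposite sign. Calb1 has a GC content of 36.8%, the lowest of the 8 genes.

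Pcp2 was rare in the hypothalamus, so that its values rest on few reads. Virgin libraries held 0 to 16 counts (0 to 0.711 CPM, median 0.198) and primiparous libraries 3 to 49 counts (0.205 to 2.31 CPM, median 0.818). The groups overlapped, with 7 of 8 primiparous libraries above the virgin mean. Its log2 difference was 1.90 ± 0.53 (edgeR adjusted p = 0.014; from 0.0076 to 0.044 when any library was left out). With the series as a covariate the difference was 2.34 (adjusted p = 0.15), and in 1 fit of all 10 groups it was 1.92 (adjusted p = 0.13). DESeq2 called Calb1 and gave no adjusted p for Pcp2.

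Of the 12 granule cell genes, Gabra6, Cbln3 and Fat2 were low in the hypothalamus (means of 0.399, 1.49 and 0.769 CPM), while others were not, up to Cbln1 at 138 CPM on average. Gabra6 ranged from 0 to 1.20 CPM in virgin and from 0 to 2.22 in primiparous libraries, and Cbln3 from 0.155 to 2.71 and from 0.404 to 4.35. Of the 12 granule cell genes 0 rose and 1 fell, Etv1 (-0.39, adjusted p = 0.0032), a gene that hypothalamic cells also express (33.5 ± 3.63 CPM in virgin libraries). With the number series as a covariate, and with the offset for gene length and GC content, 0 of the 12 passed. The summed level of the list was 291 to 347 CPM in virgin and 283 to 391 in primiparous libraries. The primiparous library with the most Pcp2, 413 (49 counts), held 1 count of Gabra6, 9 of Fat2 and 25 of Cbln3. It had the highest level of the Purkinje cell gene Arhgef33 among the 16 libraries (81 counts, 3.81 CPM) and the second highest of another, Skor2 (14 counts, 0.659 CPM). The 2 libraries with the highest CPM of the granule cell genes Fat2 and Cbln3 were primiparous 418 (3.83 and 3.29 CPM, with 11 counts of Pcp2) and 4493 (3.17 and 4.35 CPM, with 26 counts of Pcp2). Virgin 4489, which had the most Pcp2 of the virgin libraries (16 counts), held 27 counts of Gabra6, 61 of Cbln3 and 21 of Fat2. The part of cerebellar RNA in the hypothalamic Pcp2 values was not tested.

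The other 6 members did not pass the threshold in the hypothalamus. Car8 (16.6 to 22.8 against 15.1 to 21.6 CPM) had a log2 difference of -0.19 ± 0.092 (adjusted p = 0.12) and Slc1a6 (24.9 to 30.3 against 21.4 to 42.3 CPM) of 0.17 ± 0.094 (adjusted p = 0.195). Without primiparous 4493 both passed, Car8 at -0.24 (adjusted p = 0.049) and Slc1a6 at 0.24 (adjusted p = 0.026). The share of all genes past the threshold in that fit is not given here, so these calls are not read as particular to the members. Ppp1r17 was at 0.22 ± 0.13 (adjusted p = 0.22), Pvalb at -0.13 ± 0.14, Gng13 at 0.13 ± 0.16 and Itpr1 at -0.05 ± 0.056.

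Among the 23 other Purkinje cell genes in the hypothalamus, 2 rose, the calcium channel Cacna1a (0.22, adjusted p = 0.011) and the transcription factor Lhx5 (0.38, adjusted p = 0.018), and 2 fell, the transcription factor Foxp2 (-0.38, adjusted p = 0.0073) and Plcb4 (-0.18, adjusted p = 0.023). Of the pathway list 1 rose, Gna11 (0.20, adjusted p = 0.015), and 2 fell, the cGMP-dependent kinase Prkg1 (-0.29, adjusted p = 0.0083) and Plcb4. Of 20 relatives 0 rose and 5 fell, first by p the phosphatase regulator Ppp1r2 (-0.27, adjusted p = 0.0048), Gng4 (-0.18, adjusted p = 0.011) and Slc1a3 (-0.19, adjusted p = 0.015). The medians of the 3 lists, 0.05, 0.02 and -0.02, were close to that of all genes, 0.01. Of the 8 Bergmann glia and astrocyte genes Fabp7 rose (0.36, adjusted p = 0.0093) and Slc1a3 fell, and of 4 choroid plexus genes 1 rose, Ttr (1.52, adjusted p = 0.021). Of 2 deep nuclei and brainstem genes 1 fell, the glutamate transporter Slc17a6 (-0.38, adjusted p = 0.00098), and the summed level of that list was 348 to 445 CPM in virgin and 283 to 363 in primiparous libraries. Of 5 genes of forebrain calbindin neurons 2 rose, C1ql2 (0.39, adjusted p = 0.0037) and Wfs1 (0.24, adjusted p = 0.029). Of 7 oligodendrocyte genes 1 rose, Cnp (0.16, adjusted p = 0.022), and 1 fell, and 1 gene each fell of the molecular layer and Golgi interneurons (Lgi2, -0.23, adjusted p = 0.012) and of the forebrain parvalbumin interneurons (Kcnc2, -0.23, adjusted p = 0.018). With the number series as a covariate 0 genes of these lists passed. With the offset for gene length and GC content, 2 Bergmann glia and astrocyte genes rose, 1 gene each fell of the relatives, of the deep nuclei and of the molecular layer and Golgi interneurons, and 0 genes of the other lists passed. The part of these cells in the hypothalamic values of the members was not tested.

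**Figure D4:**
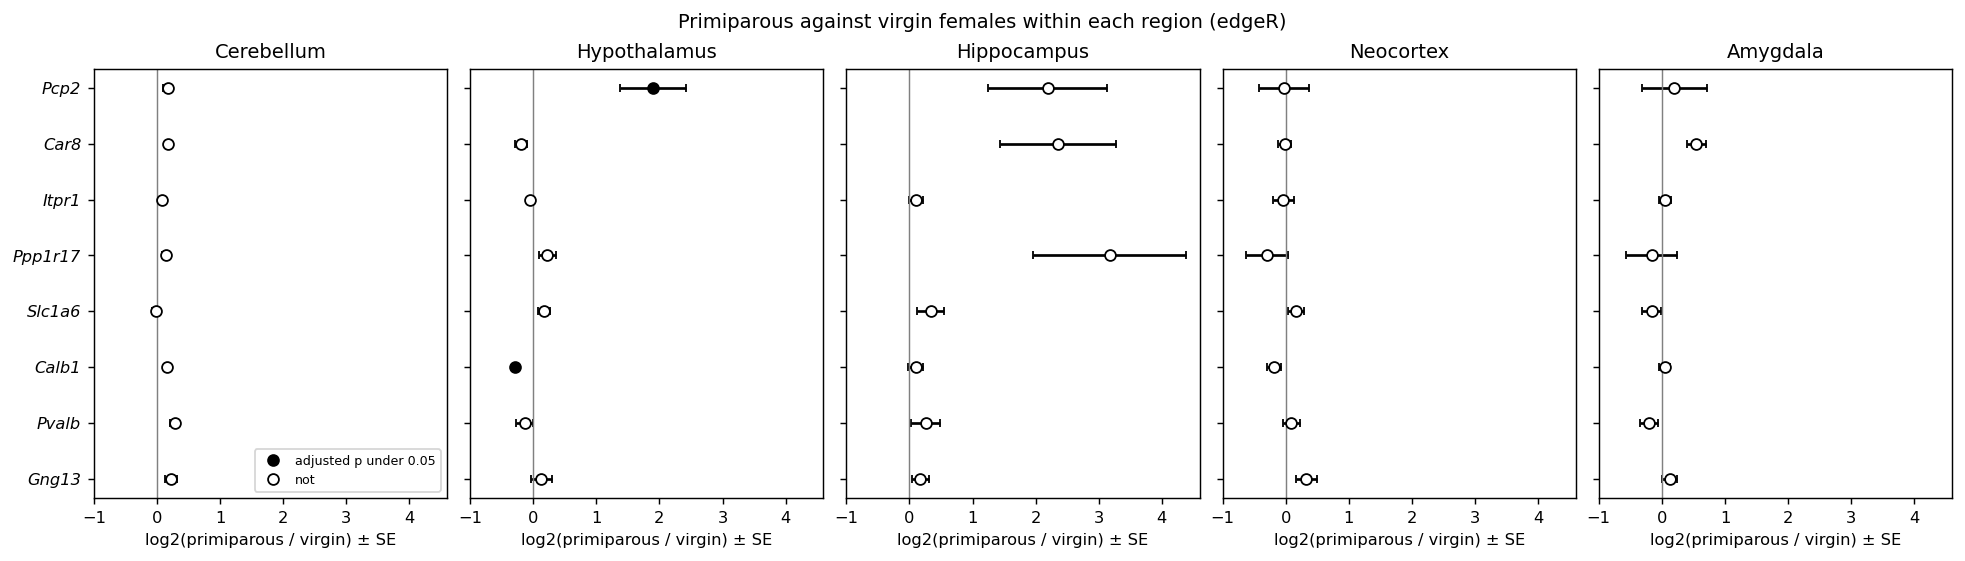
Log2 difference of primiparous against virgin females (± SE, edgeR) for each gene in each region, on the same axis, with filled symbols for an adjusted p under 0.05. The filled symbols are Pcp2 (1.90) and Calb1 (-0.29) in the hypothalamus, and the wide bars in the hippocampus belong to genes that rest on primiparous 413.

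In the hippocampus, the neocortex and the amygdala 0 members passed the edgeR threshold, as did 0% of all genes in each, and limma-voom and DESeq2 also called 0 members. At an unadjusted p under 0.05 the counts were 3, 0 and 1 of the 8, where 7.38%, 9.80% and 11.9% of all genes stood. In the hippocampus the 3 were Ppp1r17 (3.18 ± 1.21, adjusted p = 0.63), Car8 (2.36 ± 0.92, adjusted p = 0.65) and Pcp2 (2.19 ± 0.94, adjusted p = 0.66). Their size rested on primiparous 413, without which they were 0.86, 0.40 and 0.35. In the amygdala it was Car8, with 10.02 to 12.0 CPM in virgin (median 10.5) and 10.5 to 23.3 in primiparous libraries (median 15.4). For this gene 7 of 8 primiparous libraries lay above the virgin mean, 6 of them above every virgin library, and the log2 difference was 0.55 ± 0.15 (adjusted p = 0.20).

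In the neocortex the differences ran from -0.30 (Ppp1r17) to 0.32 ± 0.17 (Gng13, adjusted p = 0.50). Gng13 ranged from 18.3 to 31.6 CPM in virgin and from 17.2 to 50.6 in primiparous neocortex libraries, and the highest value belonged to primiparous 427, which also had the highest Pvalb (116 CPM) of that region. The same animal had the highest Gng13 in the amygdala (34.5 CPM).

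Whether the difference between states departed between regions was tested as an interaction in edgeR fits of 4 groups, for 7 pairs of regions. Between cerebellum and hypothalamus 3 of 8 members differed (15.5% of all genes), namely Calb1 (0.46, adjusted p = 0.0011), Car8 (0.38, adjusted p = 0.0089) and Pcp2 (-1.75, adjusted p = 0.015), where a positive value means a higher primiparous to virgin ratio in the cerebellum. With the animal as a block, Pcp2 was no longer called (-1.74, adjusted p = 0.054), Pvalb was (0.49, adjusted p = 0.038), and Calb1 (0.44) and Car8 (0.37) stayed. By limma-voom Pcp2 was not called either (-1.74, adjusted p = 0.10), and Calb1 and Car8 were. Without primiparous 4493 of the cerebellum Pvalb was called as well (0.45, adjusted p = 0.040). With the offset for gene length and GC content Calb1 was at 0.08 (adjusted p = 0.44) and Car8 at 0.15 (adjusted p = 0.24).

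Between hypothalamus and amygdala 2 members differed (18.2% of all genes), Car8 (-0.74, adjusted p = 0.0040) and Calb1 (-0.33, adjusted p = 0.025), both relatively lower in the primiparous hypothalamus, and both were called with the block (Car8 -0.69, Calb1 -0.32). With the offset for gene length and GC content neither was called, Car8 at -0.48 (adjusted p = 0.12) and Calb1, of the opposite sign, at 0.08 (adjusted p = 0.77). Between hypothalamus and hippocampus 2 members differed (17.2%), Car8 (-2.56, adjusted p = 0.041) and Calb1 (-0.39, adjusted p = 0.031). With the block neither was called (adjusted p = 0.32 and 0.088), nor with the offset. Without primiparous 413 the Car8 value was -0.61 (adjusted p = 0.028) and the Calb1 value -0.29 (adjusted p = 0.030).

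Of the other pairs, cerebellum and hippocampus (0.169% of all genes), cerebellum and neocortex (0.00768%), cerebellum and amygdala (0.415%) and hypothalamus and neocortex (0%) gave 0 members in edgeR and in limma-voom, with 3, 1, 2 and 1 of the 8 at an unadjusted p under 0.05 (15.3%, 13.4%, 13.2% and 2.58% of all genes). The hypothalamus entered 4 of the 7 pairs, so the values of Calb1 and Car8 across pairs share its libraries.

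Last, it was asked whether the 8 genes vary together between cerebella of the same state. Deviations of log2(CPM + 4) from the state mean were correlated over the 15 libraries for all 28 pairs, with a two-sided permutation test within states (100000 resamples) adjusted over the 28. The correlation was positive in 27 pairs, with a median r of 0.40 (-0.15 to 0.97), and 7 passed by Pearson's r, of which 6 also passed by Spearman's rho. Measured in the same way, r was positive in 51.0% of all pairs of the 13016 genes (median 0.01) and in 53.9% of pairs of the 2883 genes higher in the cerebellum than in each other region (median 0.04). The lowest r that passed, 0.69, was reached by 2.004% and 3.40% of these pairs. Pairs that share a gene are not independent, and these shares were not tested against the members. The 7 pairs that passed by r were positive within each state. Several other pairs were negative within virgin libraries and positive within primiparous libraries. Among them were Pcp2 with Itpr1 (r = -0.55 and 0.70), Pcp2 with Car8 (-0.46 and 0.53) and Itpr1 with Gng13 (-0.45 and 0.82). Since all values of a library share its total, depth and dissection, the correlation does not say what varied.

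Car8 and Calb1 varied together most closely, with r = 0.97 and rho = 0.96 (permutation, adjusted p = 0.00028 each; raw p = 1e-05, the smallest that the resamples can give). Without the 2 libraries farthest from the median of Car8, r was 0.95, and within virgin and within primiparous libraries it was 0.97 each. Ppp1r17 joined this pair, with r = 0.91 to Car8 (rho 0.91, adjusted permutation p = 0.00028; 0.86 without the 2 farthest) and 0.87 to Calb1 (rho 0.86, adjusted permutation p = 0.00056; 0.84 without the 2 farthest).

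Pvalb was correlated with Ppp1r17 (r = 0.85, rho 0.84, adjusted permutation p = 0.0012; 0.81 without the 2 farthest) and with Car8 (r = 0.70, rho 0.69, adjusted permutation p = 0.026; 0.60 without the 2 farthest). Pcp2 was correlated with Gng13 (r = 0.72, rho 0.69, adjusted permutation p = 0.012; 0.56 without the 2 farthest). The pair of Pcp2 and Pvalb passed by r alone (r = 0.69, rho 0.58, adjusted permutation p = 0.041 and 0.084; 0.44 without the 2 farthest), with r = 0.36 in virgin and 0.83 in primiparous libraries. The pair of Calb1 and Pvalb passed by rho alone (r = 0.64, rho 0.67, adjusted permutation p = 0.053 and 0.043; r = 0.49 without the 2 farthest). Pcp2 had r = 0.17 with Car8 and 0.06 with Calb1, and Slc1a6 passed with no other member. With the number series removed as well, the 7 values lay between 0.68 and 0.97.

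**Figure D5:**
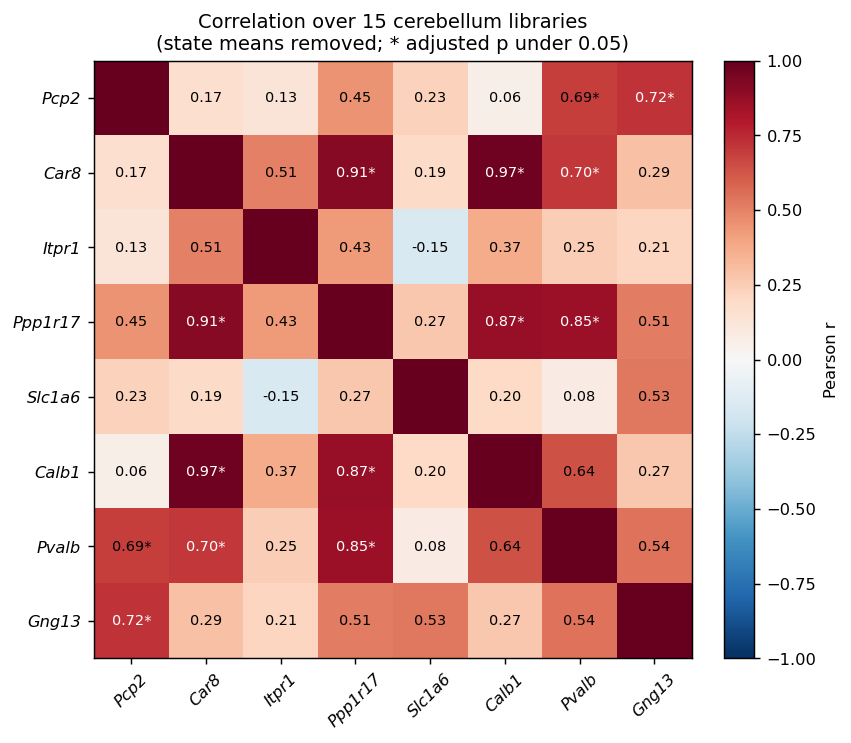
Pearson's r between the 8 genes over 15 cerebellum libraries, after the mean of each state was removed, with asterisks for an adjusted permutation p under 0.05. Car8, Calb1 and Ppp1r17 form the block of highest values (0.87 to 0.97), and Slc1a6 with Itpr1 is the lowest (-0.15).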

How the data were processed

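The authors sequenced polyadenylated RNA as single-end reads of 100 bases, aligned them to mm10 with HISAT2 and counted reads per gene with featureCounts, as the study's methods and the submitters' processing notes state. The counts deposited by the authors are whole and not normalized (77 libraries, 27179 genes). Their deposited log2 values are, to within 5e-05, log2 of the count divided by a size factor plus 4, and served as an alternative.

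The authors' filter of 5 CPM in 8 libraries was applied. Counts were tested in R 4.3.3 with edgeR 4.0.16 (TMM, quasi-likelihood F-test), each region fitted alone for reproductive state, all libraries together for regions, and 4 groups for interactions, with Benjamini-Hochberg adjustment over 13016 genes and a threshold of 0.05. Alternatives used limma 3.58.1, DESeq2 1.42.0, other size factors, no filter, a number series covariate, an offset for gene length and GC content (known for 97.05% of genes tested), a replicate block and leaving out each library. Counts simulated from the cerebellum libraries were used to test the fit for reproductive state only. They were fitted with edgeR, also with the offset and with other size factors, and with limma-voom and DESeq2. The fits of regions and interactions, the covariate and the replicate block were not tested in this way. Summaries used Python 3.11.15, numpy 2.4.6, pandas 2.3.3, scipy 1.17.1 and matplotlib 3.10.9.

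All regions were dissected from the same animals, whose numbers stand in the labels and pair the libraries. Same-animal deviations from group means had a median correlation from -0.013 to 0.10 over 10 pairs of regions. The authors removed 3 libraries as outliers, and they were not analysed here. Total counts ranged from 7959192 to 37871854 per library, and floors cover counting error only.

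The members and the lists of other genes were chosen with earlier results of these data known. Every member is named. Of the lists, genes named as called between the states have the smallest adjusted p of their list, at most 3 a direction. Where none was called, the gene with the smallest p is named for some lists only. The 3 genes most like each member are those with the largest r over 77 libraries. Some genes of these lists are counted but not reported here by name.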

Additional observations from a re-analysis of the deposited data

Results flagged for a closer look

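Among 80 groups (8 genes in 10 groups of libraries), 14 held a library whose gap to its nearest neighbour was large against the range of its group, a criterion that chance meets in about 1 of 20 groups. Of these, 8 were the hippocampus library of primiparous 413, at 21.5 CPM of Pcp2, 223 of Car8, 1070.1 of Itpr1, 24.0 of Ppp1r17, 21.9 of Slc1a6, 221 of Calb1, 82.1 of Pvalb and 24.7 of Gng13. Primiparous 427 stood high in Pvalb (116 CPM) and Gng13 (50.6 CPM) in the neocortex and in Gng13 (34.5 CPM) in the amygdala. The others were virgin 4489 in the hypothalamus (Pcp2, 0.711 CPM), virgin 4488 in the amygdala (Itpr1, 707 CPM) and virgin 4486 in the amygdala (Gng13, 15.5 CPM, the lowest of its group).

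The difference between primiparous and virgin females departed between 2 regions, by an interaction test in edgeR, in 7 cases. Between cerebellum and hypothalamus these were Pcp2 (-1.75 on the log2 scale, adjusted p = 0.015), Car8 (0.38, adjusted p = 0.0089) and Calb1 (0.46, adjusted p = 0.0011). Between hypothalamus and hippocampus they were Car8 (-2.56, adjusted p = 0.041; -0.61 without primiparous 413) and Calb1 (-0.39, adjusted p = 0.031), neither of which was called with the animal as a block (adjusted p = 0.32 and 0.088) or with the offset for gene length and GC content. Between hypothalamus and amygdala they were Car8 (-0.74, adjusted p = 0.0040) and Calb1 (-0.33, adjusted p = 0.025), also lost with the offset. Between cerebellum and hypothalamus Pcp2 was lost with the block (adjusted p = 0.054), and Car8 and Calb1 with the offset. What lies behind these values was not tested.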

How the results depend on the processing

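Of the values of single members by comparison and setting, 912 of 966 kept both their direction and their side of the threshold for reproductive state, 820 of 880 for pairs of regions and 254 of 304 for interactions. A further 38, 18 and 28 changed sign while passing the threshold neither with nor without the alternative. Primiparous and virgin females differed in the cerebellum in 0 members, against 1 by DESeq2, 1 with the offset for length and GC content and 0 to 4 when a library was left out. In the hypothalamus 2 differed, against 1 by DESeq2 (no adjusted p for Pcp2), 0 with the number series as a covariate, 1 with the offset, 1 in 1 fit of 10 groups and 2 to 4 when a library was left out. In the hippocampus 0 differed, against 2 in 1 fit of 10 groups. Primiparous 413 was the highest hippocampus library for all 8 members. Without it, 0 differed in the fit of the hippocampus alone, and the members' median log2 difference fell from 0.29 to 0.071. The fit of 10 groups is not given here without that library, nor is its share of all genes. These 2 calls are therefore not read as particular to the members or to reproductive state. With primiparous libraries only, 3 in place of 5 members differed between hippocampus and amygdala and 2 in place of 4 between neocortex and amygdala.

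Since the animal's number pairs the regions, it entered the interaction as a replicate block. Hypothalamus against hippocampus gave 0 in place of 2 members with the block, 0 with the offset, 0 with both, 0 with no filter and 1 by limma-voom. Cerebellum against hypothalamus gave 3 with the block, 1 with the offset, 0 with both and 2 by limma-voom, and hypothalamus against amygdala 2, 0 and 0. The block changed no other count of interactions.

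These values, past the threshold in at least 1 of the fits compared, turned sign. Calb1 in the hypothalamus was 0.040 with the offset, and its interaction 0.078 against the amygdala with the offset, 0.080 with offset and block, and 0.032 against the hippocampus with both. Car8 was -1.17 between hypothalamus and hippocampus in primiparous libraries only. Between hippocampus and neocortex it was -0.73 by limma-voom, -0.95 without primiparous 413 and -1.16 in virgin libraries only, and between hippocampus and amygdala -0.71 and -0.64 in the latter 2. Between hippocampus and neocortex Ppp1r17 was -1.06 in virgin libraries only and Slc1a6 0.23 with the offset. The cause was not tested. The interactions without primiparous 413 and without primiparous 4493 were chosen after seeing the data. Depth limits Pcp2 outside the cerebellum, at 0 to 49 counts a library beside primiparous 413 of the hippocampus.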
